A study of Glycine max with 12 samples.

Results

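SWEET10a (GLYMA_15G049200) and SWEET10b (GLYMA_08G183500) are a pair of closely related soybean genes for sugar exporters of the seed. They were taken by their identifiers, and both were found among the 57147 gene IDs of the count table and of the FPKM table (fragments scaled by gene length and library size). SWEET proteins sit in a membrane and let sugar pass down its concentration gradient, without the proton gradient that sucrose importers draw on. In a legume seed the embryo has no vascular link to the mother plant, so sucrose unloaded in the seed coat has to be exported into the space around the embryo before the embryo can import it. In soybean, SWEET10a and SWEET10b are known for this export step, and variation at both genes has been tied to seed size and to the oil and protein content of the seed.

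The libraries came from pods of cultivar Magellan, from plants that had been inoculated with Bradyrhizobium japonicum and grown for 16 to 18 days until their first flower opened. Under combined stress, irrigation was held to 30% of transpirable water and chambers ran at 38 °C (day) and 28 °C (night). Heat stress had the same 38 and 28 °C regime with 100% irrigation. Water deficit meant 30% irrigation at 28 °C (day) and 24 °C (night), and control plants had 100% irrigation at 28 and 24 °C. Each condition had its own growth chamber, so condition and chamber cannot be told apart. Each of the 3 libraries per condition was made from 10 to 15 pods pooled from 8 to 10 plants. A pod holds pod wall and seeds, and the tables give no gene names from which seed coat or embryo markers could be read. In such whole-pod RNA, a larger or smaller part of seed coat in the pod and more or less RNA per seed coat cell cannot be told apart.

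Total counts per library ran from 17310023 to 26591115, so that 3 counts corresponded to 0.113 to 0.173 CPM (counts scaled to library size, adjusted here with TMM composition factors unless stated otherwise). Water deficit replicate 2 stood apart from the other libraries. It lay at -192.4 on the first principal component, against -57.7 to 104.4 for the other 11, and 87.5% of its counts between 6 and 65 were even numbers, against 59.1 to 78.8% elsewhere. The edgeR changes of each gene that rest on it are therefore given with and without it. Even numbers were the more frequent in every library, however, with 78.8% in heat stress replicate 3 and 75.5% in combined-stress replicate 3. The reason was not tested. The intervals on counts given below, and the floor of 3 counts, take each count as independent. If counts were not independent, these intervals are too narrow.

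SWEET10b was the more abundant of the pair in every library. In combined stress it had 63.4, 136.5 and 94.4 CPM in replicates 1, 2 and 3. In heat stress it had 5.91, 13.0 and 4.79 CPM, in water deficit 36.2, 8.09 and 16.0 CPM, and in control 2.88, 17.2 and 13.8 CPM. All 3 combined-stress libraries thus lay above the other 9, while the libraries of the other 3 conditions overlapped one another. SWEET10a, the scarcer gene, had 70, 203 and 83 counts in combined stress, or 3.09, 11.2 and 3.30 CPM. It had 2, 2 and 0 counts in heat stress (at most 0.118 CPM), 48, 0 and 7 counts in water deficit (at most 2.52 CPM), and 0, 15 and 0 counts in control (at most 0.770 CPM). Again the combined-stress libraries lay above the other 9, and every library of heat stress was at or under 3 counts. Among all 38737 genes tested, 5.84% had their 3 combined-stress libraries above the other 9.

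**Figure D1:**
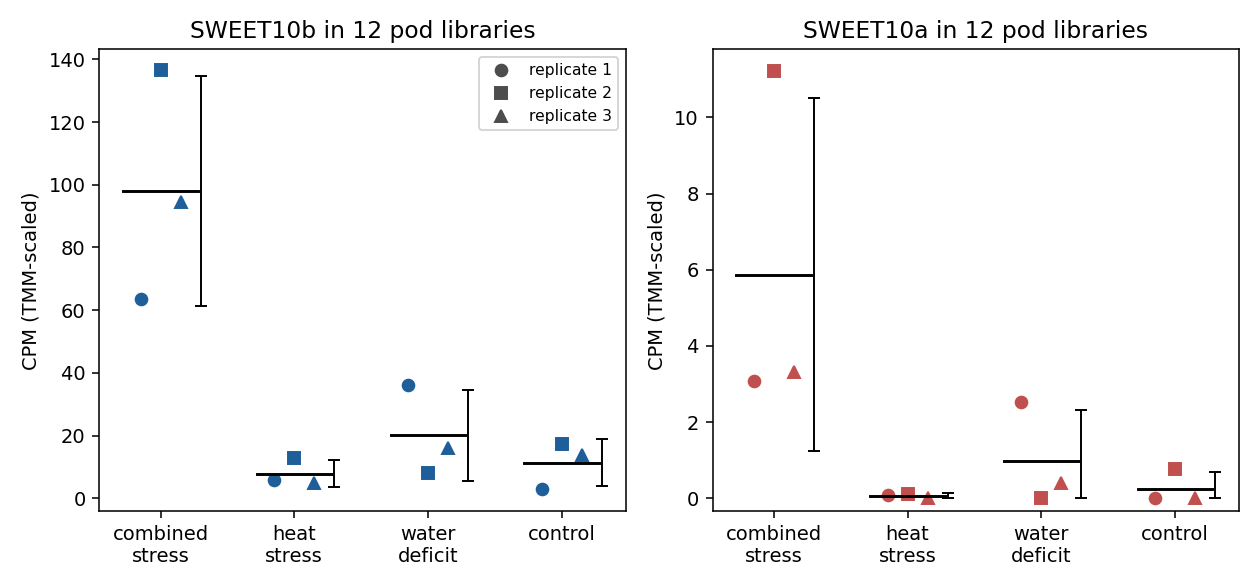
TMM-scaled CPM (vertical axes, linear, of different range) of SWEET10b (left) and SWEET10a (right) in each of the 12 libraries, by condition; marker shapes give the replicate, lines the group mean and bars 1 SD, cut at 0. The lowest combined-stress library stood at 63.4 CPM for SWEET10b and 3.09 CPM for SWEET10a, above all libraries of heat stress, water deficit and control.

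The order of the group means was the same for both genes, with combined stress highest, followed by water deficit, control and heat stress. SWEET10b averaged 98.1 ± 36.7 CPM in combined stress, 7.89 ± 4.44 in heat stress, 20.1 ± 14.5 in water deficit and 11.3 ± 7.51 in control (SD, n = 3 each). SWEET10a averaged 5.87 ± 4.64 CPM in combined stress, 0.0708 ± 0.0624 in heat stress, 0.973 ± 1.35 in water deficit and 0.257 ± 0.445 in control (SD, n = 3 each). In water deficit and in control the SD of SWEET10a was larger than its mean, because single libraries held most of its counts: 48 of 55 in water deficit and 15 of 15 in control. No pair of neighbours in this order passed the test described next, neither combined stress against water deficit, nor water deficit against control, nor heat stress against control.

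The deposited FPKM values, which are per length and so allow the genes to be set side by side, gave the same order. SWEET10b stood at 100.4 ± 36.2 FPKM in combined stress, 7.58 ± 3.90 in heat stress, 19.5 ± 13.0 in water deficit and 10.8 ± 7.80 in control (SD, n = 3 each). Ranked by mean FPKM, it lay above 98.2% of the genes detected in combined stress, 66.9% of those in heat stress, 85.6% of those in water deficit and 75.1% of those in control. SWEET10a had 3.38, 9.75 and 4.76 FPKM in combined stress, and its group mean there lay above 60.2% of detected genes. Its FPKM was listed as 0.0908, 0.0573 and 0 in heat stress, 2.31, 0 and 0.397 in water deficit, and 0, 1.56 and 0.113 in control. The tables differ for SWEET10a. In control, replicate 3 has 0.113 FPKM with 0 counts, and replicate 2 has an FPKM 2.04 times its CPM by library size. That ratio was 0.496 in heat stress replicate 2, at 2 counts, and ran from 0.836 to 1.36 in combined stress. For SWEET10b it ran from 0.858 to 1.18 over the 12 libraries. In mean FPKM, SWEET10b exceeded SWEET10a 16.8-fold in combined stress, 21.6-fold in water deficit and 19.3-fold in control. Single libraries set these folds outside combined stress: without control replicate 2 the control fold was 126, and without water deficit replicate 1 the water-deficit fold was 61.1, whereas the combined-stress fold stayed between 15.1 and 20.3. The 154-fold excess in heat stress rests on SWEET10a values at or under the floor of 3 counts.

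Which conditions changed the transcripts was tested with edgeR's quasi-likelihood test over all 38737 genes, and a gene was called at a Benjamini-Hochberg adjusted p under 0.05. Combined stress was first set against control. SWEET10b rose 8.72-fold (log2 change 3.12, SE 0.79, 95% interval 1.32 to 4.93, edgeR adjusted p = 0.0326), in a comparison that called 13.9% of all genes, and 5.39% of all genes as higher. Its rise exceeded that of all but 1.39% of the genes tested. The call was narrow. It was lost when control replicate 1, 2 or 3, combined-stress replicate 1, 2 or 3, or water deficit replicate 3 was left out, with log2 changes from 2.66 to 3.58 and edgeR adjusted p from 0.0518 to 0.0958. It was kept without water deficit replicate 2 (log2 change 3.15, edgeR adjusted p = 0.0258). It was not called in a fit of only the combined-stress and control libraries (log2 change 3.14, edgeR adjusted p = 0.0545). With the replicate number as a block it was not called either (edgeR adjusted p = 0.0654). Of the settings other than left-out libraries, these 2 lost the call and 10 kept it, the sum of both genes among them. DESeq2 (log2 change 3.15, adjusted p = 0.000357) and limma-voom (log2 change 3.51, adjusted p = 0.0129) kept it.

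For SWEET10a the same comparison gave a fitted log2 change of 4.55 (SE 1.55, 95% interval 1.19 to 7.90, edgeR adjusted p = 0.0715), which did not pass. The gene entered the test through the libraries in which it was high: 5 of 12 exceeded the filter level of 0.506 CPM, namely all 3 of combined stress, 1 of water deficit and 1 of control. Its spread between replicates was wide, with a biological coefficient of variation of 1.25, larger than in 99.1% of the genes tested, against 0.612 for SWEET10b. Over the summed counts of each group, 356 in combined stress against 15 in control, the scaled ratio was 24.3 (95% exact interval 14.5 to 43.9). That interval covers counting error only and takes each count as independent. All 15 control counts came from replicate 2. Without that library the control group is at 0, the fitted log2 change of 9.92 depends on edgeR's prior count, and the edgeR adjusted p was 0.0125. Without water deficit replicate 2 the log2 change was 4.59 (edgeR adjusted p = 0.0264), and without water deficit replicate 1 it was 4.55 (edgeR adjusted p = 0.0330), so that the call for SWEET10a turned on single libraries. It also differed between methods: limma-voom on the counts called it (log2 change 6.15, adjusted p = 0.0377), and so did limma on log2(FPKM + 1), a scale that understates changes of scarce genes (log2 change 2.19, adjusted p = 0.00751), whereas DESeq2 did not (adjusted p = 0.122).

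Under a single stress neither gene passed against control. In water deficit SWEET10b stood at 1.79-fold the control level (log2 change 0.84, SE 0.75, 95% interval -0.88 to 2.56, edgeR adjusted p = 1) in a comparison that called 0.0955% of all genes. SWEET10a had a log2 change of 1.97 there (SE 1.48, edgeR adjusted p = 1), which was -0.30 without water deficit replicate 1, the library with 48 of the 55 counts. SWEET10b had a log2 change of 0.098 without that library and of 0.37 without control replicate 1, and reached 1.28 without control replicate 2 (edgeR adjusted p from 0.899 to 1 over all fits with a library left out). Without water deficit replicate 2 the log2 changes were 1.22 for SWEET10b and 2.58 for SWEET10a (edgeR adjusted p = 1 for both). In heat stress SWEET10b stood at 0.699-fold the control level (log2 change -0.52, SE 0.77, 95% interval -2.28 to 1.25, edgeR adjusted p = 0.859), and SWEET10a had a log2 change of -1.71 (SE 1.82, edgeR adjusted p = 0.774), where 1.89% of all genes were called. For SWEET10b this ranged from -1.07 without heat stress replicate 2 to -0.080 without control replicate 2. The sign for SWEET10a in heat stress rested on control replicate 2, without which the log2 change was 3.64 against a control group at 0. The intervals are wide, and changes of several fold in either direction were not detectable for SWEET10a at this depth and spread.

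Combined stress was also set against each stress alone. Against heat stress, SWEET10b rose 12.5-fold (log2 change 3.64, SE 0.81, 95% interval 1.78 to 5.50, edgeR adjusted p = 0.0406), where 5.25% of all genes were called and 1.64% were called as higher. When single libraries were dropped, this call was kept in 3 of 12 fits, those without control replicate 1, water deficit replicate 1 or water deficit replicate 2 (log2 change 3.67, edgeR adjusted p = 0.0328 for the last). It was lost without any 1 of the other 9 libraries, with log2 changes from 3.35 to 4.21 and edgeR adjusted p from 0.0520 to 0.134. Of the settings other than left-out libraries, 11 kept the call, the sum of both genes among them. The replicate number as a block was the 1 that lost it (edgeR adjusted p = 0.0841). DESeq2 (log2 change 3.67, adjusted p = 5.86e-05) and limma-voom (log2 change 3.73, adjusted p = 0.0404) kept it. SWEET10a had a fitted log2 change of 6.26 (SE 1.77, edgeR adjusted p = 0.0621), which missed the threshold with all libraries and passed it without water deficit replicate 2 (log2 change 6.28, edgeR adjusted p = 0.0243). It also passed without water deficit replicate 1, control replicate 1 or control replicate 2, with log2 changes from 6.25 to 6.28 and edgeR adjusted p from 0.0242 to 0.0470. SWEET10a passed in these 4 of 12 fits only. Without any 1 library of heat stress or combined stress it missed the threshold (edgeR adjusted p from 0.101 to 0.196). In summed counts it had 356 in combined stress against 4 in heat stress, a scaled ratio of 76.5 (95% exact interval 29.6 to 282).

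Against water deficit, SWEET10b stood 4.87-fold higher in combined stress (log2 change 2.28, SE 0.76, 95% interval 0.55 to 4.02), and SWEET10a had a log2 change of 2.58 (SE 1.38). Neither passed (edgeR adjusted p = 0.0877 for SWEET10b and 0.255 for SWEET10a), in a comparison that called 13.4% of all genes. The libraries did not overlap for either gene, with a lowest combined-stress library of 63.4 CPM against a highest water-deficit library of 36.2 CPM for SWEET10b, and 3.09 against 2.52 CPM for SWEET10a, but 17.4% of all genes were separated in that direction. Without water deficit replicate 2 the log2 changes were 1.92 for SWEET10b and 2.01 for SWEET10a (edgeR adjusted p = 0.206 and 0.373), and without water deficit replicate 1 they were 3.03 and 4.84 (edgeR adjusted p = 0.0598 and 0.0679). SWEET10a gave 1.72 without combined-stress replicate 2. Without control replicate 1 SWEET10b passed (log2 change 2.28, edgeR adjusted p = 0.0490), and DESeq2 on all libraries called it as well (log2 change 2.31, adjusted p = 0.0147). Heat stress against water deficit gave log2 changes of -1.36 for SWEET10b (SE 0.77, edgeR adjusted p = 0.412) and -3.68 for SWEET10a (SE 1.72, edgeR adjusted p = 0.282), where 3.79% of all genes were called. These were -1.74 and -4.27 when water deficit replicate 2 was left out (edgeR adjusted p = 0.343 and 0.189), and -0.62 and -1.42 when water deficit replicate 1 was left out (edgeR adjusted p = 0.739 and 0.724).

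**Figure D2:**
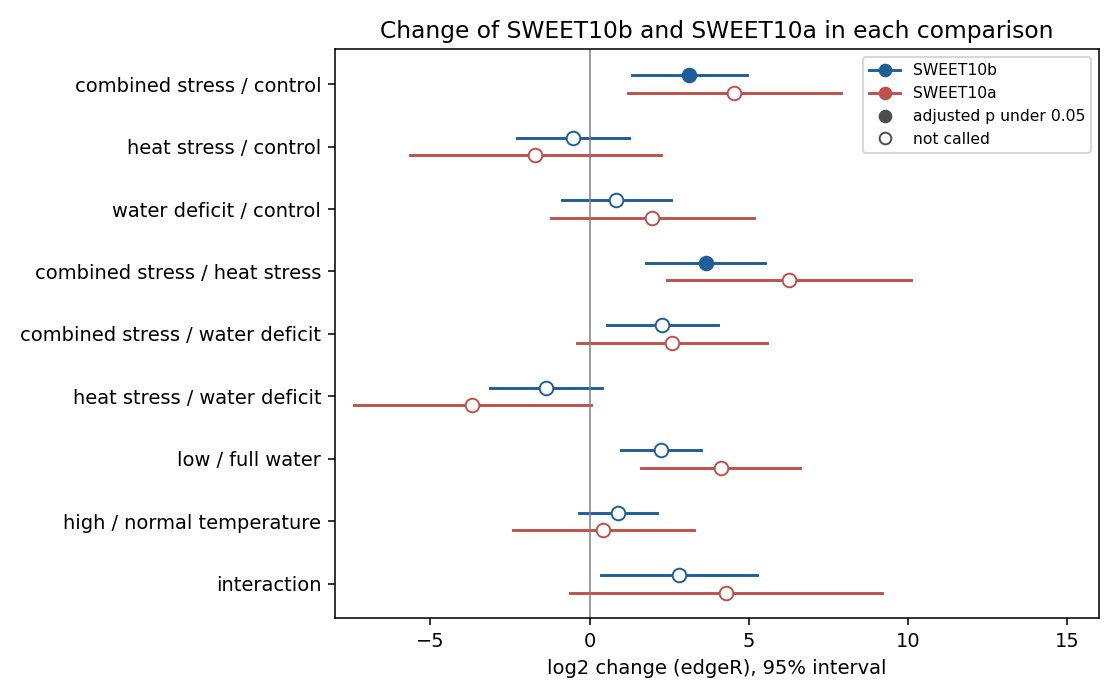
Log2 change (horizontal axis) of SWEET10b (blue) and SWEET10a (red) in the 9 comparisons of the edgeR fit, with 95% intervals; filled points passed an adjusted p under 0.05. The SWEET10b points for combined stress against control (3.12) and against heat stress (3.64) are the filled ones, and the SWEET10a intervals are the wider of each pair.

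The design crosses temperature with water supply, so each factor can be read at both levels of the other. Low water at the normal temperature gave SWEET10b a log2 change of 0.84, and low water at the high temperature one of 3.64. High temperature gave -0.52 with full water and 2.28 with low water. The single-stress changes of SWEET10b added up to a log2 change of 0.32, or 1.25-fold, against 3.12 in combined stress. The departure from that sum, the interaction, was 2.80 (SE 1.07, 95% interval 0.34 to 5.26, unadjusted p = 0.0300), and it did not pass over all genes (edgeR adjusted p = 0.403), where 0.139% were called. For SWEET10a the sum was 0.26, the combined change 4.55 and the interaction 4.28 (SE 2.27, edgeR adjusted p = 0.546), but without control replicate 2 the interaction was -1.05. Without water deficit replicate 2 the interaction was 2.44 for SWEET10b and 3.70 for SWEET10a (edgeR adjusted p = 0.529 and 0.600). A different response to both stresses than to the sum of each was therefore not shown for either gene.

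Averaged over both temperatures, low against full water gave log2 changes of 2.24 for SWEET10b (SE 0.55, 95% interval 0.99 to 3.49) and 4.11 for SWEET10a (SE 1.15, 95% interval 1.63 to 6.60). These missed the threshold with edgeR adjusted p of 0.0786 and 0.0826, where 2.88% of all genes were called. By fitted change alone, 0.896% of genes had a larger rise than SWEET10b and 0.139% a larger one than SWEET10a. For SWEET10a that rank rests on 4 counts in heat stress and 15 in control, so it is a description only. Without water deficit replicate 2 the log2 changes were 2.44 (edgeR adjusted p = 0.0584) for SWEET10b and 4.43 (edgeR adjusted p = 0.0290) for SWEET10a. Without control replicate 2, which leaves control at 0 counts, SWEET10a gave 6.80 (edgeR adjusted p = 0.0160). SWEET10a passed in only these 2 of 12 fits with a library left out. It gave 2.98 without water deficit replicate 1 (edgeR adjusted p = 0.212). DESeq2 called SWEET10b with all libraries (log2 change 2.25, adjusted p = 0.00108) and not SWEET10a (adjusted p = 0.0893). High against normal temperature, averaged over both water supplies, gave 0.88 for SWEET10b (SE 0.53, edgeR adjusted p = 0.325) and 0.43 for SWEET10a (SE 1.31, edgeR adjusted p = 0.871), where 15.6% of all genes were called. Leaving out water deficit replicate 2 gave 0.70 and 0.16 (edgeR adjusted p = 0.451 and 0.963).

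**Figure D3:**
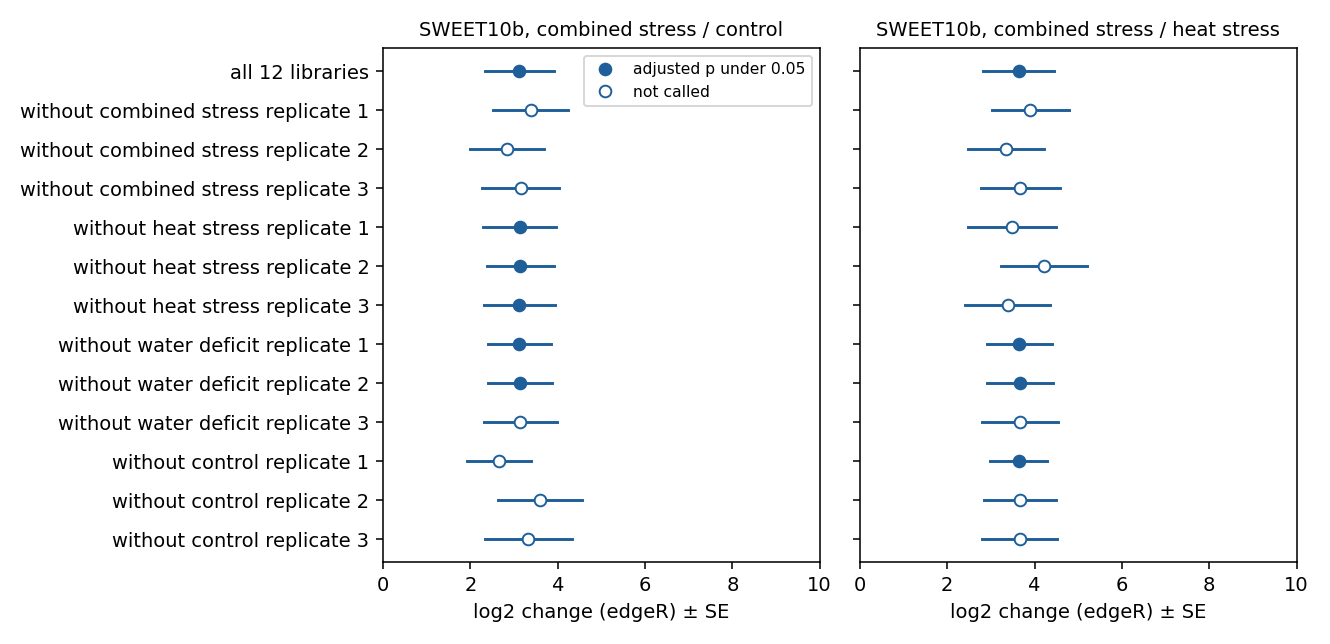
Log2 change of SWEET10b (horizontal axis, bars 1 SE) in combined stress against control (left) and against heat stress (right), with all 12 libraries and with each left out in turn; filled points passed an adjusted p under 0.05. The change stayed between 2.66 and 3.58 on the left and between 3.35 and 4.21 on the right, while the call was made in 5 and in 3 of the 12 fits.

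The balance between the genes was then examined within each library, where it does not depend on scaling. SWEET10a made up 4.64, 7.60 and 3.38% of the counts of both genes in combined stress (95% Wilson intervals 3.69 to 5.82, 6.65 to 8.67 and 2.74 to 4.17%). Its part was 1.57, 0.901 and 0% in heat stress, 6.50, 0 and 2.44% in water deficit, and 0, 4.27 and 0% in control. In these point values the combined-stress libraries lay above those of heat stress, and overlapped those of water deficit and control. The heat-stress values rest on 2, 2 and 0 counts, with 95% Wilson intervals of 0.433 to 5.56, 0.247 to 3.22 and 0 to 4.14%. Each of these intervals overlaps that of combined-stress replicate 3, and none reaches that of combined-stress replicate 2. Where SWEET10a had no counts, the limit from 3 counts was 3.37% in heat stress replicate 3, 2.04% in water deficit replicate 2, 3.95% in control replicate 1 and 1.00% in control replicate 3. In the 8 libraries where SWEET10a had counts, which left only replicate 2 of control, the log2 ratio of SWEET10a to SWEET10b could be formed. It differed by 1.00 between low and full water (exact permutation test within temperatures, two-sided p = 0.167, adjusted p = 0.333 over 2 tests) and by -0.79 between high and normal temperature (exact permutation p = 0.4, adjusted p = 0.4), and the smallest p these 8 libraries allow is 0.0333. The temperature difference was 0.97 when 0.5 was added to each count so that all 12 libraries entered (exact permutation adjusted p = 0.35). With the percentage, defined in all 12 libraries and chosen after the zeros were seen, low water exceeded full water by 2.97 percentage points (exact permutation p = 0.075, adjusted p = 0.150), and by 3.71 points without water deficit replicate 2 (exact permutation p = 0.025, adjusted p = 0.05, not under the threshold). Of the 6 pairs of groups, combined stress against heat stress gave the smallest exact permutation p, 0.1 (difference 4.38 percentage points), which is also the smallest that 3 against 3 libraries can give, and no pair passed after adjustment (0.600).

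**Figure D4:**
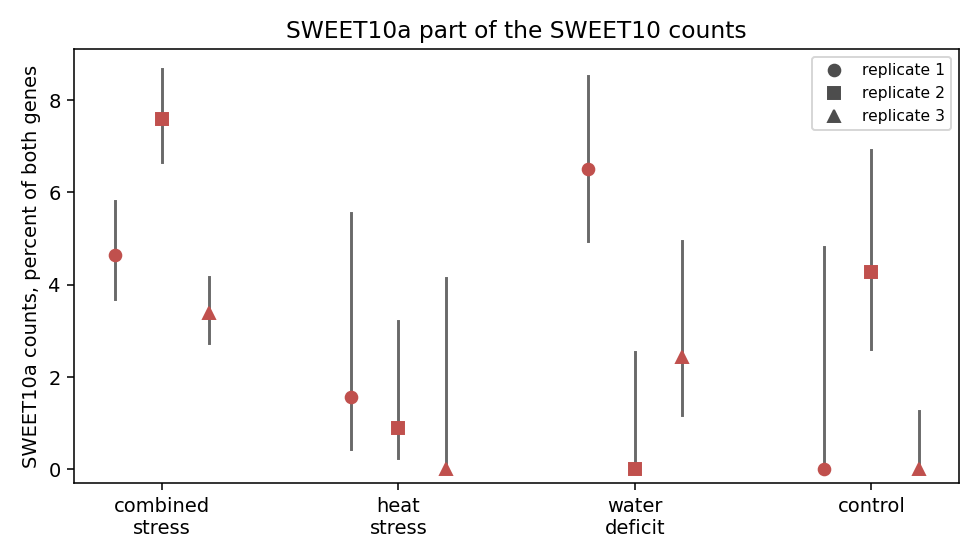
Counts of SWEET10a as a percentage of the counts of both genes (vertical axis) in each library, by condition. Bars are 95% Wilson intervals for counting error, with counts taken as independent. In point values the combined-stress libraries lay between 3.38 and 7.60%, above the heat-stress libraries at 0 to 1.57%. They overlapped those of water deficit (0 to 6.50%) and control (0 to 4.27%). The intervals of the heat-stress libraries overlap that of combined-stress replicate 3.

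How reads that fit both genes were counted is not given in the sources used here, so a part of SWEET10a's counts could belong to SWEET10b or the reverse. The sum of both genes is untouched by such a split if each shared read was counted once, for 1 of the genes. If shared reads were dropped or counted for both genes, the sum is affected as well. Summed, they had 66.5, 147.7 and 97.7 CPM in combined stress, 6.00, 13.1 and 4.79 CPM in heat stress, 38.7, 8.09 and 16.4 CPM in water deficit, and 2.88, 18.0 and 13.8 CPM in control. As 1 feature the sum rose in combined stress against control (log2 change 3.18, SE 0.81, edgeR adjusted p = 0.0345) and against heat stress (log2 change 3.71, SE 0.84, edgeR adjusted p = 0.0425), and did not pass against water deficit (log2 change 2.30, SE 0.78, edgeR adjusted p = 0.0936).

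Within most groups the genes also had their highest library in common. The library with the most SWEET10b was also the one with the most SWEET10a in combined stress (replicate 2), water deficit (replicate 1) and control (replicate 2), while in heat stress replicates 1 and 2 tied at 2 counts of SWEET10a. Across the 12 libraries the log2 CPM of both genes had a Pearson r of 0.933. This describes libraries that fall into conditions, and 15 of 33939 genes whose mean reached 1 CPM followed SWEET10a more closely than SWEET10b did. In the other direction SWEET10a ranked number 53 among the genes most like SWEET10b. The genes whose profile was most like that of SWEET10b were GLYMA_04G022500 (r = 0.988) and GLYMA_16G158400 (r = 0.979). GLYMA_04G022500 averaged 287 CPM in combined stress, 33.4 in heat stress, 70.6 in water deficit and 54.7 in control. Those most like SWEET10a were GLYMA_09G233900 (r = 0.977) and GLYMA_18G018600 (r = 0.973). GLYMA_09G233900 averaged 84.8 CPM in combined stress, 14.8 in heat stress, 21.7 in water deficit and 14.7 in control. The tables do not pair these IDs with names, and the genes were picked for their likeness, so their levels are a description.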

How the data were processed

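Total RNA of pooled pods was sequenced in 12 libraries, 3 per condition, per the labels' protocols. The authors deposited read counts per gene and FPKM per gene, both with 1 column per library. HISAT2 2.2.1 is named per the submitters' processing notes, and the counter, strand setting, annotation and genome build are not given in the sources used here. The genes and comparisons were chosen with earlier results of these data known.

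The deposited counts were fitted with edgeR 4.0.16 (R 4.3.3, robust quasi-likelihood, TMM factors 0.951 to 1.06, edgeR's low-count filter by group) as 4 group means, with 9 contrasts adjusted by Benjamini-Hochberg over 38737 genes. The SE is the log2 change over the root of F. The alternatives were DESeq2 (version 1.42.0), limma 3.58.1 with voom weights, limma on the deposited FPKM after log2(FPKM + 1) or log2(FPKM + 0.1), other scalings and filters, a replicate block and left-out libraries. The fits were tried on simulated counts with 1 spread for all genes (biological coefficient of variation 0.328). There edgeR recovered 172 of 200 genes given a log2 change of 2 in combined stress against control. SWEET10a (1.25) and SWEET10b (0.612) vary more than that, so the trial does not cover these genes. Replicate libraries were not duplicates (chi-square per degree of freedom at least 9.74).

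Of the file IDs, 0 matched the gene table available (Glycine_max_v4.0), so planned lists of sugar transport genes and of seed and pod wall markers were not run, and no sequence is shown. The rule for named genes was the pair itself and, for each, at most 2 genes with the highest Pearson r of log2 CPM (prior count 2).

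Replicates are separate pools of pods. Depth sets the floor of 3 counts, and intervals on counts cover counting error only, with each count taken as independent.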

Additional observations from a re-analysis of the deposited data

How the results depend on the processing

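Of the settings that kept all libraries, DESeq2's size factors, library size alone and no filter changed no direction and no call for either gene. Alternatives on the deposited FPKM called more. Log2(FPKM + 1), with a mean of at least 1, gave SWEET10a a log2 change of 2.19 in combined stress against control, 1.96 against water deficit, 2.63 against heat stress and 1.43 for low against full water, all called (limma adjusted p from 0.00751 to 0.0407), and the first 3 were also called without the filter, at the same values. For SWEET10b it called 2.42 against water deficit and 2.26 for low against full water, with and without the filter. Log2(FPKM + 0.1) called 4.07 (control) and 5.25 (heat stress) for SWEET10a, and 2.49 (water deficit) and 2.40 (low water) for SWEET10b. DESeq2 called SWEET10b against water deficit (2.31) and for low water (2.25), and SWEET10a against heat stress (6.41). Limma-voom called SWEET10a against control (6.15) and SWEET10b against water deficit (2.45), and reversed SWEET10a in heat stress (log2 change 0.28, limma adjusted p = 0.977). A mean of at least 1 CPM (6.28) and a fit of only the groups compared (6.27) called SWEET10a against heat stress, and the fit of only the groups compared lost SWEET10b against control (3.14, edgeR adjusted p = 0.0545). Fits of only the groups compared left SWEET10a out by the low-count filter in the 3 pairs without combined stress. It reached a mean of 1 CPM or 1 FPKM only through combined stress, where its group means were 5.87 CPM and 5.96 FPKM. The highest other group means were 0.973 CPM and 0.901 FPKM, in water deficit. Its calls under these filters are therefore no added support. Same-numbered libraries did not deviate together (correlations of deviations from -0.22 to 0.14, own number best in 8 of 36 comparisons), so the numbers were not taken as pairs. With the replicate block, SWEET10b was not called in combined stress against control (3.16, edgeR adjusted p = 0.0654) or against heat stress (3.66, edgeR adjusted p = 0.0841), and no other call changed.

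With 1 library left out at a time, log2 changes of SWEET10b ranged from 2.66 to 3.58 in combined stress against control, from 3.35 to 4.21 against heat stress and from 1.92 to 3.03 against water deficit. Those of SWEET10a ranged from 3.67 to 9.92 against control and from 5.40 to 6.74 against heat stress, from 1.72 to 4.84 against water deficit, from -0.30 to 7.33 in water deficit and from -2.33 to 3.64 in heat stress against control, from -1.05 to 6.56 for the interaction, from -0.0068 to 3.12 for temperature and from 2.98 to 6.80 for water supply. Of these, 9.92, 7.33, 3.64, 3.12, 6.80 and -1.05 came without control replicate 2, with SWEET10a at 0 in control, and are no bounds. No SWEET10b change reversed. The temperature difference in the balance of the genes, -0.79, turned to 0.97 with 0.5 added to each count and to 0.81 percentage points as a percentage (0.068 without water deficit replicate 2), none past the test (exact permutation adjusted p = 0.35, 0.585 and 0.98). The group means as a percentage of combined stress moved by less than 1 SD under library size alone and in FPKM, but SWEET10a in control, where the SD is wide, stood at 9.37% in FPKM against 4.37% in CPM. The number of genes called moved over all settings from 3196 to 9190 in combined stress against control and from 548 to 3139 against heat stress. The cause of the changes was not tested where none is given. Depth limits SWEET10a, with 4 libraries at 0 counts and a median of 4.5 counts.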
